A study of Mus musculus with 10 samples.

Results

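Germline and meiosis genes were followed across RNA-seq libraries of mouse embryonic stem cells (mESCs) that lack a subunit of MiDAC, the mitotic deacetylase complex built on HDAC1 or HDAC2. The set was a list of 41 genes fixed by name: 14 of the piRNA pathway, 11 of the meiotic chromosome, 7 germ cell regulators, 4 spermatogenic effectors and 5 *Rhox* homeobox genes. Of these, 40 had a row among the 34591 genes of the table, and *Rhox5* was not analysed here. The set and the further lists were chosen with earlier results of these data known. Their shares are therefore a description beside those of all genes and no test of an excess. *Dnttip1* was knocked out in clones D2A7 and D1E6 and *Elmsan1* in clones E2E8 and E2G7, and with the WT parent this made 5 groups of 2 libraries, 10 in all. All cells derived from the male C57/BL6 Bruce-4 line and grew without feeders in 2iL medium, which holds LIF and inhibitors of GSK3β and MEK, also in the WT group. Each KO line was the progeny of a single sorted cell with CRISPR/Cas9 indels in exon 2 of the target, so a knockout stood on 2 clones and the 2 libraries of a clone shared its history. The study calls the 2 libraries of a line biological replicates, and no source used here states that they came from separate cultures, so p-values measure the spread between these libraries.

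Germline genes are silent in most somatic tissues. Many have CpG-rich promoters that are kept off by DNA methylation and by a variant Polycomb complex, PRC1.6, which reaches them through MGA and MAX at E-boxes and through E2F6 at its own sites. In naive mESCs, DNA methylation is low and a number of these genes are transcribed at modest levels. The piRNA pathway loads small RNAs onto PIWI proteins to silence transposons. In meiosis, the synaptonemal complex holds homologous chromosomes together and the meiotic cohesins hold sister chromatids together. The *Rhox* genes are a cluster of X-linked homeobox genes expressed in reproductive tissues and placenta.

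Promoter sequences were taken from RefSeq (GRCm38.p6) as windows from 250 bases before to 50 bases after the start of each gene, and 34 of the 40 genes had an entry. The E-box CACGTG occurred in 14 of the 34 windows (41.2%) and in 7.24% of the 27025 windows of all genes. The E2F6-type motif GCGGGA, searched on both strands, occurred in 11 of the 34 (32.4%) and in 20.0% of all windows, and 7 of the 34 held both, against 2.05% of all. The median number of CpG dinucleotides per window was 18 in the 34 genes and 7 in all genes. These matches are a description of the letters in these windows and do not show binding. Below are 5 windows: 3 that hold both motifs and belong to genes that differed between the *Elmsan1* KO clones (*Hormad1*, *Sycp3* and *Stag3*), and 2 with neither motif, from *Syce1*, which was lower in all 4 KO clones, and *Dazl*, which was higher in a single clone. They are written 5′ to 3′ on the strand of the gene, with motif matches in capitals. The *Hormad1* window is chr3:95559427-95559726 (+), that of *Sycp3* chr10:88459337-88459636 (+), that of *Stag3* chr5:138280259-138280558 (+), that of *Syce1* chr7:140787805-140788104 (-) and that of *Dazl* chr17:50293571-50293870 (-).
Hormad1: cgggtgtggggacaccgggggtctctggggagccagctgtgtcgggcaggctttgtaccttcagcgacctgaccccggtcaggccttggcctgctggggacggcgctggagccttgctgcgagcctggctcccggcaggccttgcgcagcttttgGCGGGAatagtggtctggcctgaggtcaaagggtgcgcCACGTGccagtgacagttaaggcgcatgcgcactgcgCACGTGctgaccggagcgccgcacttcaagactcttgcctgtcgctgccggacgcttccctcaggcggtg
Sycp3: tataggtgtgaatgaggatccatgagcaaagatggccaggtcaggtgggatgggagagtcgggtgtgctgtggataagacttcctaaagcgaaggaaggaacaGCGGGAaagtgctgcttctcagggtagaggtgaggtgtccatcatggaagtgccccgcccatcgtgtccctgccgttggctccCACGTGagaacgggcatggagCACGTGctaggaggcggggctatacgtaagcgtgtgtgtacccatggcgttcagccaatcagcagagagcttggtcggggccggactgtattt
Stag3: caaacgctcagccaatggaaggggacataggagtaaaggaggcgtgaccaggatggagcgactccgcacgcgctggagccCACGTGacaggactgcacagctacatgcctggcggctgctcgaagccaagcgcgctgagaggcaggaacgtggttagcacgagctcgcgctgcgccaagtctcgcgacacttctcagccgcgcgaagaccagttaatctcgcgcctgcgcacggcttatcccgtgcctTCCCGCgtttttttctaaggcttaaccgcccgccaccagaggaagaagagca
Syce1: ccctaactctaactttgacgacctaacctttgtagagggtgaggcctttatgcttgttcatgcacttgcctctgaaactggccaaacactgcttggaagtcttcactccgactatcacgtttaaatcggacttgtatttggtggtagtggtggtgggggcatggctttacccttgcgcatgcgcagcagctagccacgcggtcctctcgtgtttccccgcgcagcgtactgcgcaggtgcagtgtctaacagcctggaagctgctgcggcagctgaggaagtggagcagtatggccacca
Dazl: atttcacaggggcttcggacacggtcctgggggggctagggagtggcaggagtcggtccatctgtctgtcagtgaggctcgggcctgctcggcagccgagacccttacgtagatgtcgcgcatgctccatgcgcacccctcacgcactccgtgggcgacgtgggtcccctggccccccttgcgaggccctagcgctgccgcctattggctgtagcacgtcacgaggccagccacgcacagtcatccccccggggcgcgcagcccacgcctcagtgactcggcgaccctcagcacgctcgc
The matches in the *Hormad1* window were 2 E-boxes that began 57 and 20 bases before the start site and 1 E2F6-type motif 95 bases before it. The *Sycp3* window held 2 E-boxes at 64 and 43 bases before the start, and the *Stag3* window a single E-box at 170 bases before it. The *Syce1* window held 14 CpG dinucleotides and the *Dazl* window 28 without a match to either motif. The windows shown were picked as examples and do not stand for the set. *Mael*, *Slc25a31*, *Sycp1* and *Ddx4* also held both motifs and were not called between the *Elmsan1* KO clones. *Hormad2*, *Sohlh2*, *Asz1* and *Rhox2a* held neither motif and were called higher in E2E8 than in E2G7.

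**Figure D1:**
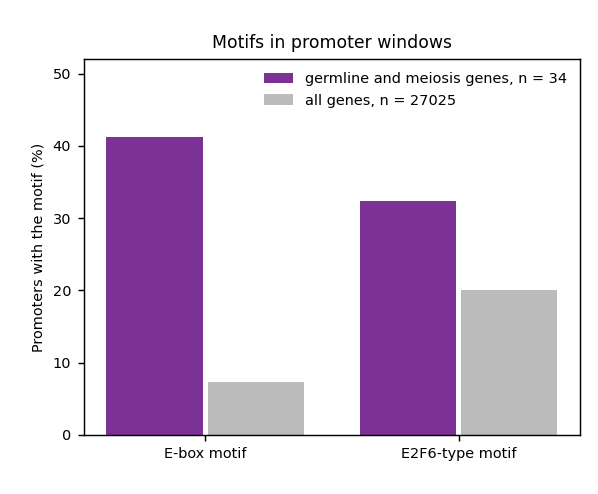
Share of RefSeq promoter windows (%) that hold the E-box motif or the E2F6-type motif, for the 34 germline and meiosis genes with an entry (purple) and for all 27025 genes (grey). The E-box stands in 41.2% of the former and 7.24% of the latter.

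From 30182383 to 84291843 fragments were assigned to genes per library, with both WT libraries the shallowest. *Dnttip1* itself stood at 8.45 and 8.35 FPKM in WT and at 4.57, 4.55, 2.58 and 2.6 FPKM in the *Dnttip1* KO libraries, while *Elmsan1* (listed as C130039O16Rik) stood at 5.73 and 5.34 FPKM in WT and between 4.62 and 5.13 FPKM in the *Elmsan1* KO libraries; indels need not lower a transcript, so this level checks the *Elmsan1* labels only weakly. Against WT, the median gene of chromosome 8 was higher by 0.35 to 0.37 on the log2 scale in all 4 clones, and that of chromosome 6 by 0.29 to 0.42 in D1E6, E2E8 and E2G7 but not in D2A7 (-0.08). *Asz1*, *Stk31* and *Stra8* lie on chromosome 6 and *Nanos3* on chromosome 8. The 8 embryonic stem cell markers examined were all expressed, with at least 59.0 FPKM in every library, and none of the 5 spermatid markers passed 0.0706 FPKM. The 7 fibroblast genes summed to 0.136 to 0.179 FPKM in WT, 0.212 to 0.587 FPKM in *Dnttip1* KO and 0.169 to 0.263 FPKM in *Elmsan1* KO, and the 8 genes of gonadal somatic cells to 0.764 to 0.936, 1.13 to 1.37 and 0.836 to 1.15 FPKM; 5 genes of each list stayed under 0.1 FPKM in every library. Looked up after the values were seen, the fibroblast gene *Thy1* was higher in D2A7 than in D1E6 (0.85 ± 0.20, adjusted p = 0.029) and the steroidogenic gene *Star* higher in *Dnttip1* KO than in WT (0.77 ± 0.20, adjusted p = 0.062). Of the 8 embryonic stem cell markers, 5 were lower and 1 higher in E2E8 than in E2G7 at an adjusted p under 0.05, none by the fold of 1.5, with a median log2 difference of -0.15. The part of these markers in the results was not tested. In bulk RNA, fewer cells that express a gene and less RNA of it per cell cannot be told apart.

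The germline and meiosis genes spanned from no fragments to 26.3 FPKM. A mean of at least 1 FPKM in WT or in a clone was reached by 21 of the 40, a further 14 stayed under that level, and 5 were under 0.1 FPKM in every library. The last were *Tdrd6* (0 to 0.00897 FPKM), *Piwil4* (0.00349 to 0.0853 FPKM), *Sycp2* (0.0133 to 0.0817 FPKM), *Nanos2* (0 to 0.0913 FPKM) and *Brdt* (0.0146 to 0.0715 FPKM), a Tudor gene, a PIWI gene, a lateral element gene, an RNA-binding regulator and a testis bromodomain gene. The meiotic chromosome genes *Hormad1*, *Stag3* and *Syce1*, the X-linked *Rhox6* and the regulators *Prdm1* and *Dazl* were among the more abundant. Differences were tested with limma on log2(FPKM + 0.1), where 2 or more of the libraries compared reached 0.1 FPKM. A gene was called when it changed at least 1.5-fold with an unadjusted p under 0.01, and p-values adjusted by Benjamini-Hochberg over all genes tested are given beside. Log2 fold changes are on the scale of log2(FPKM + 0.1), which understates the change of low genes. In all, 23 of the 40 were called in at least 1 of the 5 comparisons made, and 35 were tested in at least 1. The share of all genes called at least once was not worked out, so 23 of the 40 is not read as an excess.

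The genes called in *Dnttip1* KO were all lower, and those in *Elmsan1* KO went in both directions. In *Dnttip1* KO against WT (4 libraries against 2), 6 of the 33 tested were lower and 0 higher, where 3.25% of all 17434 genes were called lower and 3.26% higher. The 6 were *Syce1*, *Hormad2*, *Sohlh2*, *Slc25a31*, *Rhox2a* and *Rhox13*. *Rhox13* would not have passed the filter without the WT libraries, here and in *Elmsan1* KO. The median log2 fold change of the 33 was -0.23, beside 0.02 for all genes. Of the 12 with an unadjusted p under 0.05, *Stag3* and *Nanos3* were the higher ones, and voom on whole fragments also called 6 lower and 0 higher. In *Elmsan1* KO against WT, 4 of the 34 tested were lower (*Syce1*, *Dazl*, *Rhox2a* and *Rhox13*) and 2 higher (*Piwil2* and *Tdrd5*), where 3.68% of all genes were called lower and 2.74% higher. The median of the 34 was -0.06, beside 0.00 for all genes. The 2 comparisons share the WT libraries. The *Elmsan1* KO count rested on both WT libraries, as it was 3 without WT replicate 1 and 2 (1 lower and 1 higher) without WT replicate 2. With the correlation within clones estimated, 3 of the 6 calls were lost in each knockout (adjusted p = 0.21 to 0.34 for these genes), which left 3 lower and 0 higher in *Dnttip1* KO and turned the split in *Elmsan1* KO to 1 lower and 2 higher. At a mean of at least 1 FPKM the *Elmsan1* KO split was 2 and 2. A pseudocount of 1 in place of 0.1 ended 20 of the 37 calls made in the 5 comparisons, among them those of *Hormad2*, *Slc25a31* and *Rhox13* in *Dnttip1* KO and of *Dazl*, *Tdrd5* and *Rhox13* in *Elmsan1* KO.

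In *Dnttip1* KO against *Elmsan1* KO (4 against 4), limma called 0 of 33 lower and 0 higher, with 0.415% and 1.11% of all genes called. At an unadjusted p under 0.05 there were 8, voom called 1 (*Tdrd5*), and a single fit of all 10 libraries called 8, of which 6 were lower and 2 higher. Leaving out either D1E6 library also called *Tdrd5*, and leaving out either E2G7 library called *Sohlh2*.

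Clones of the same knockout also differed, 13 of 31 genes (41.9%) being called between D2A7 and D1E6 and 12 of 30 (40%) between E2E8 and E2G7. These shares are not set against those of a knockout and WT, whose fit holds the differences between clones in its spread. In D2A7 against D1E6 (2 against 2), 5 of the 31 tested were lower and 8 higher, with 3.73% of all genes called lower and 9.2% higher. In E2E8 against E2G7, 0 of the 30 tested were lower and 12 higher, with 3.27% and 10.5% of all genes. Of the 12, *Tdrd9* passed the filter only through E2E8. In that comparison 21 of the 30 had an unadjusted p under 0.05, for which no share of all genes was worked out. Quantile normalization turned the split of 0 lower and 12 higher into 2 lower (*Mael* and *Rhox9*) and 9 higher, and voom called 0 lower and 14 higher. Called between both pairs of clones were 5 genes, *Hormad1*, *Rec8*, *Smc1b*, *Stk31* and *Sycp3*, of the 13 between the *Dnttip1* KO clones and of the 12 between the *Elmsan1* KO clones. *Hormad1* went in opposite directions in these pairs. The share of all genes called in both pairs was not worked out, so the 5 are not read as an excess. The median log2 fold change of the set was 0.14 between the *Dnttip1* KO clones and 0.45 between the *Elmsan1* KO clones, beside 0.04 and 0.05 for all genes.

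**Figure D2:**
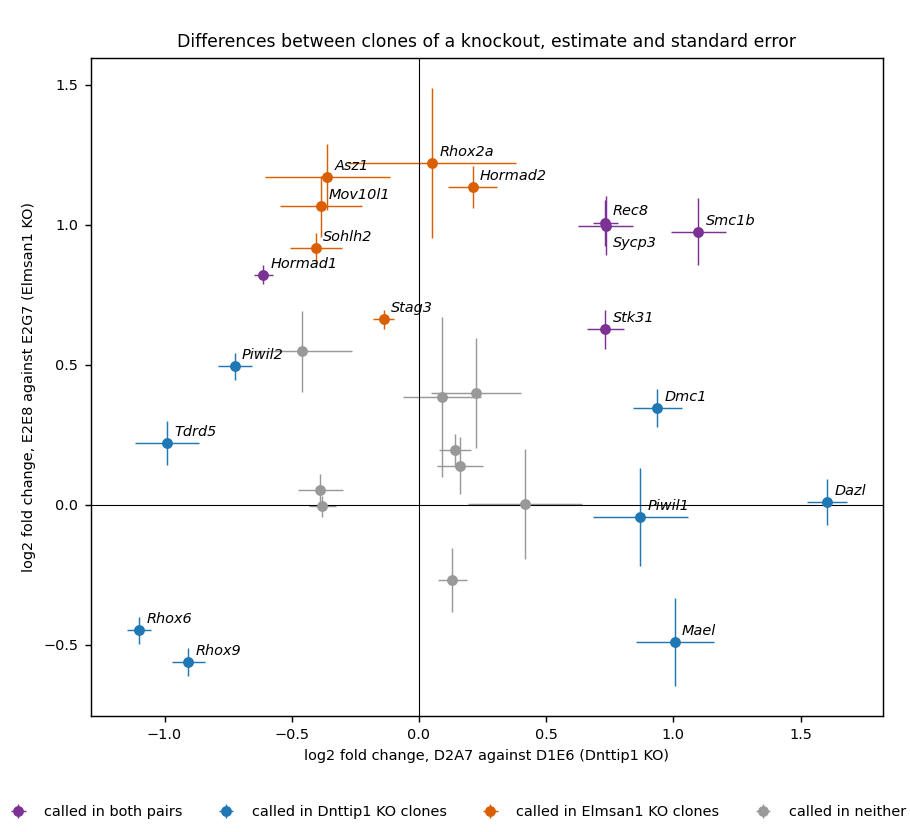
Log2 fold change of each gene tested in both clone comparisons, D2A7 against D1E6 (x axis) and E2E8 against E2G7 (y axis), with standard errors as bars and colour for the comparison in which the gene was called. *Rec8*, *Sycp3*, *Smc1b* and *Stk31* lie upper right, *Hormad1* upper left, and *Dazl* far right at 1.60 on the x axis and 0.01 on the y axis.

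Each clone was also set against WT alone, an alternative chosen after seeing the data and fitted with the spread of all 10 libraries. D2A7 had 10 lower and 6 higher of 32 tested, where 5.72% of all genes were called lower and 11.3% higher. D1E6 had 9 lower and 2 higher of 30 (6.34% and 5.33% of all genes), E2E8 had 4 lower and 7 higher of 33 (6.24% and 10.7%), and E2G7 had 8 lower and 2 higher of 31 (6.86% and 3.8%). The calls of each clone included *Syce1*, *Rhox2a* and *Rhox13* as lower and *Dazl*, higher in D2A7 and lower in the other clones. The 4 comparisons share the WT libraries. *Rhox13* would not have passed the filter in any clone without the WT libraries, so it could hardly have been called higher. The same held for *Rhox2a* in D2A7. Over the 21 genes whose mean reached 1 FPKM, the median absolute log2 difference between clone means was 0.61 for D2A7 and D1E6 and 0.56 for E2E8 and E2G7, beside 0.19 and 0.20 over the 12982 genes that reach this level. It was 0.094 for D1E6 and E2G7, clones of different knockouts, beside 0.072 over all such genes. Between the single libraries of a clone it was 0.080 in D1E6 and 0.065 in E2G7 for these genes, and 0.053 and 0.051 over all such genes, so the distance between the means of both clones was above that of their own libraries. It was not above that of the WT libraries, which was 0.098 for these genes and 0.073 over all such genes. The libraries of D2A7 differed by 0.093 and 0.065 and those of E2E8 by 0.053 and 0.060. *Dnttip1* stood at 2.59 FPKM in D1E6 and 7.70 FPKM in E2G7.

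**Figure D3:**
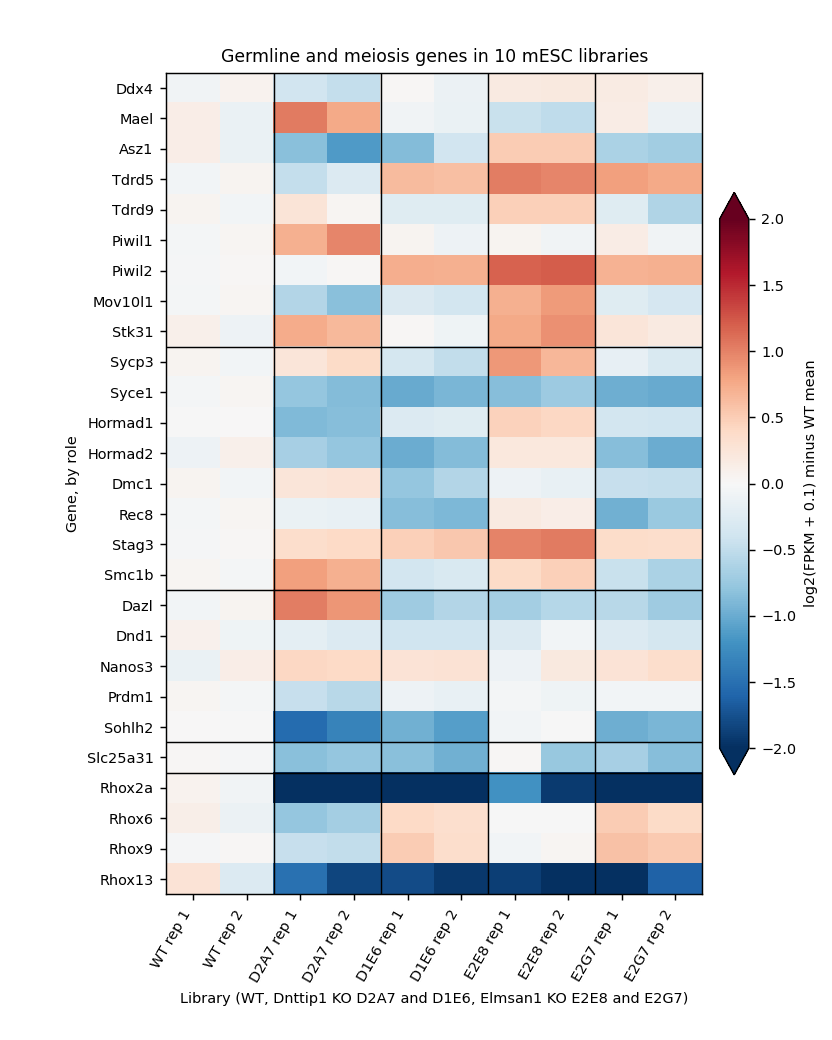
Colour gives log2(FPKM + 0.1) minus the WT mean for the 27 genes that reached 1 FPKM in a group or were called, by role (rows, split by lines), in the 10 libraries (columns); the colour scale ends at -2 and 2. *Syce1*, *Rhox2a* and *Rhox13* are blue in all 4 KO clones, while most other rows change colour between D2A7 or E2E8 and the remaining clones.

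Among genes of the synaptonemal complex and chromosome axis, *Syce1*, which encodes a central element protein, was lower in all 8 KO libraries (NCBIM37 chr7:147963128-147973753). Gene positions are given in NCBIM37, the build of the deposited files, and differ from the GRCm38.p6 positions of the promoter windows. It stood at 11.1 and 11.7 FPKM in WT, at 6.63 and 6.19 in D2A7, at 5.6 and 6 in D1E6, at 6.27 and 6.84 in E2E8 and at 5.76 and 5.65 in E2G7. The KO libraries lay close together and well below both WT libraries. The log2 fold change was -0.89 ± 0.08 (SE; adjusted p = 0.0052) in *Dnttip1* KO and -0.89 ± 0.09 (adjusted p = 0.0058) in *Elmsan1* KO, and the call held under every alternative run. Between the knockouts the difference was 0.00 (95% interval -0.20 to 0.19).

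*Hormad1*, whose product marks unsynapsed axes, was the most abundant of the 11 meiotic chromosome genes in every group but D2A7, where *Stag3* was (chr3:95363599-95391593). Its levels were 16.6 and 16.9 FPKM in WT, 9.05 and 9.23 in D2A7, 13.9 and 14.1 in D1E6, 23.2 and 22.4 in E2E8, and 13 and 12.7 in E2G7. E2E8 lay above WT and the other 3 clones below it, without overlap. D2A7 was below D1E6 by -0.61 ± 0.04 (adjusted p = 0.0007), and E2E8 above E2G7 by 0.82 ± 0.03 (adjusted p = 0.00055). *Hormad2*, its paralog, stood at 2.38 and 2.77 FPKM in WT, 1.58 and 1.46 in D2A7, 1.24 and 1.35 in D1E6, 2.98 and 3 in E2E8, and 1.37 and 1.24 in E2G7. E2E8 was again the exception, with the other 3 clones below WT. *Hormad2* was called in *Dnttip1* KO (-0.83 ± 0.13, adjusted p = 0.02), a call lost without WT replicate 2, and differed between E2E8 and E2G7 by 1.14 ± 0.08 (adjusted p = 0.00088).

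*Sycp3*, a lateral element protein, stood at 1.29 and 1.18 FPKM in WT, 1.48 and 1.65 in D2A7, 0.947 and 0.852 in D1E6, 2.33 and 2.01 in E2E8, and 1.09 and 0.979 in E2G7. It was higher in D2A7 than in D1E6 (0.73 ± 0.11, adjusted p = 0.0075), a call that quantile normalization ended, and in E2E8 than in E2G7 (1.00 ± 0.11, adjusted p = 0.0024). Of its exon bases, 52.2% are shared with *Chpt1* on the opposite strand; the libraries were stranded, but whether counting used the strand is not stated. *Chpt1* also differed between clones, with 2.44 and 2.24 FPKM in WT, 3.07 and 2.72 in D2A7, 1.52 and 1.68 in D1E6, 2.38 and 2.33 in E2E8, and 1.62 and 1.66 in E2G7, and its part in the *Sycp3* values was not tested. *Sycp1*, the transverse filament gene, ranged from 0.167 to 0.356 FPKM and was not called in a comparison.

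The genes of the meiotic cohesin also differed between clones. *Stag3* (chr5:138721468-138753621) was at 8.45 and 8.8 FPKM in WT, 11 and 11.4 in D2A7, 12 and 12.6 in D1E6, 17.3 and 17.9 in E2E8, and 11.1 and 11 in E2G7. All 8 KO libraries were above both WT libraries, a pattern of 1 of the 40 genes and of 6.7% of all genes in the table. Below WT in all 8 lay 5 of the 40, beside 7.1% of all genes. Among genes that reached 1 FPKM in a group, 1 of 21 lay above, beside 13.9% of all such genes. Below lay 3 of 21, beside 13.4%, so neither pattern was more frequent than among all such genes by more than a small margin. The log2 fold change of *Stag3* was 0.44 ± 0.07 (adjusted p = 0.021) in *Dnttip1* KO, short of the fold required, and 0.69 ± 0.23 (adjusted p = 0.12) in *Elmsan1* KO, where the call was made by the fit of all 10 libraries and with E2E8 alone against WT, and by no other alternative run. E2E8 stood above E2G7 by 0.66 ± 0.03 (adjusted p = 0.00069). *Rec8*, the meiotic kleisin, was at 5.93 and 6.3 FPKM in WT, 5.57 and 5.48 in D2A7, 3.33 and 3.25 in D1E6, 6.94 and 6.73 in E2E8, and 3.11 and 3.61 in E2G7. D1E6 and E2G7 were lower than the other 6 libraries, with differences of 0.73 ± 0.05 between the *Dnttip1* KO clones (adjusted p = 0.00098) and 1.01 ± 0.08 between the *Elmsan1* KO clones (adjusted p = 0.0013). *Smc1b*, the meiotic SMC1 subunit, was at 0.71 and 0.66 FPKM in WT, 1.28 and 1.19 in D2A7, 0.511 and 0.533 in D1E6, 0.92 and 0.995 in E2E8, and 0.474 and 0.404 in E2G7, above WT in D2A7 and E2E8 and below it in D1E6 and E2G7. The clone differences were 1.10 ± 0.11 (adjusted p = 0.0025) and 0.97 ± 0.12 (adjusted p = 0.0035).

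*Dmc1*, the meiotic recombinase, was at 2.25 and 2.1 FPKM in WT, 2.59 and 2.64 in D2A7, 1.22 and 1.42 in D1E6, 2.02 and 1.95 in E2E8, and 1.55 and 1.54 in E2G7. D2A7 exceeded D1E6 by 0.94 ± 0.10 (adjusted p = 0.0027), whereas the difference of 0.34 ± 0.07 between E2E8 and E2G7 fell short of the fold. *Spo11*, which makes the meiotic double-strand breaks, ranged from 0.04 to 0.139 FPKM on 6 to 37 fragments, and no comparison called it.

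**Figure D4:**
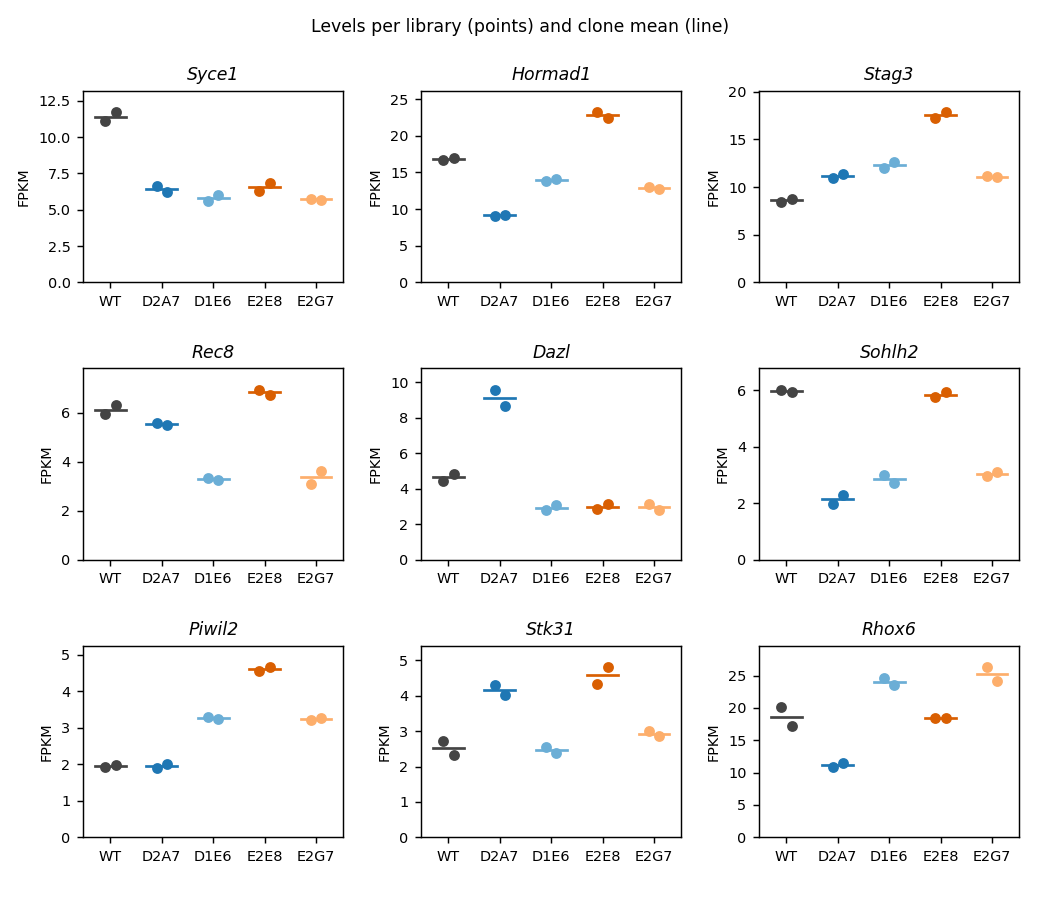
FPKM in each library (points) and the mean of its 2 libraries (lines) for WT and the 4 KO clones, for 9 genes on axes that start at 0. *Syce1* is lower in every clone, *Dazl* is highest in D2A7 at 9.57 and 8.65, and *Sohlh2* is at WT level in E2E8 only.

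Among germ cell regulators, *Dazl*, an RNA-binding translational regulator of germ cells (chr17:50418719-50432924), moved in opposite directions in different clones. It stood at 4.46 and 4.85 FPKM in WT, 9.57 and 8.65 in D2A7, 2.79 and 3.07 in D1E6, 2.86 and 3.11 in E2E8, and 3.14 and 2.79 in E2G7. The 6 libraries of the latter 3 clones lay close together below WT, and D2A7 stood alone above it. In *Elmsan1* KO it fell by 0.63 on the log2 scale (SE 0.09, adjusted p = 0.014), a call lost without WT replicate 2, whereas the *Dnttip1* KO clones D2A7 and D1E6 differed by 1.60 ± 0.08 (adjusted p = 0.00052). Against WT, D2A7 was at 0.95 ± 0.09 (adjusted p = 7.8e-05) and D1E6 at -0.65 ± 0.09 (adjusted p = 0.00072).

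*Sohlh2*, a bHLH factor of early germ cell differentiation (chr3:54985950-55013879), was at 6.02 and 5.95 FPKM in WT, 1.99 and 2.3 in D2A7, 3.01 and 2.73 in D1E6, 5.75 and 5.95 in E2E8, and 2.98 and 3.12 in E2G7. Both E2E8 libraries were at the WT level and the 6 libraries of the other 3 clones were clearly below it. The log2 fold change in *Dnttip1* KO was -1.24 ± 0.17 (adjusted p = 0.013), and E2E8 exceeded E2G7 by 0.92 ± 0.05 (adjusted p = 0.00073). *Prdm1*, the transcriptional repressor known for germ cell specification, was at 9.08 and 8.61 FPKM in WT, 6.41 and 6.01 in D2A7, 8.26 and 7.96 in D1E6, 8.61 and 8.31 in E2E8, and 8.47 and 8.51 in E2G7. D2A7 was the lowest group and differed from WT by -0.50 ± 0.05 (adjusted p = 8.1e-05), which is under the fold required. *Dnd1*, an RNA-binding cofactor of NANOS proteins, was at 1.64 and 1.46 FPKM in WT, 1.34 and 1.26 in D2A7, 1.15 and 1.15 in D1E6, 1.27 and 1.48 in E2E8, and 1.27 and 1.2 in E2G7, and was not called. *Nanos3*, an RNA-binding protein gene needed for primordial germ cells, was at 2.19 and 2.68 FPKM in WT, 3.28 and 3.24 in D2A7, 2.97 and 2.97 in D1E6, 2.25 and 2.79 in E2E8, and 2.94 and 3.14 in E2G7; it was not called, with a log2 fold change of 0.35 ± 0.11 in *Dnttip1* KO. It lies on chromosome 8, and in E2E8, where the median of that chromosome was also higher, it differed from WT by 0.04 ± 0.12; the part of that shift was not tested. *Stra8*, a gene of meiotic entry, ranged from 0.0219 to 0.146 FPKM on 2 to 14 fragments, was not called in the 5 comparisons and was called only in D2A7 against WT (0.67 ± 0.20, adjusted p = 0.022). *Stra8* passed the filter there only through its D2A7 level, so it could hardly have been called lower.

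Of the piRNA pathway, the PIWI gene *Piwil2* (chr14:70772287-70828901) and *Tdrd5* were higher in *Elmsan1* KO. *Piwil2* stood at 1.93 and 1.98 FPKM in WT, 1.89 and 1.99 in D2A7, 3.29 and 3.25 in D1E6, 4.54 and 4.66 in E2E8, and 3.22 and 3.26 in E2G7. D2A7 was at the WT level and the other 3 clones were above it. The log2 fold change in *Elmsan1* KO was 0.95 ± 0.19 (adjusted p = 0.028), although the call was lost under voom and without either WT library, and D2A7 lay below D1E6 by -0.72 ± 0.07 (adjusted p = 0.0021). *Tdrd5*, a Tudor domain gene listed as a long non-coding RNA in GENCODE vM1, was at 0.605 and 0.655 FPKM in WT, 0.426 and 0.503 in D2A7, 1.03 and 1.01 in D1E6, 1.39 and 1.34 in E2E8, and 1.18 and 1.13 in E2G7. Its order across clones was like that of *Piwil2*, apart from D2A7, which was below WT. It was higher in *Elmsan1* KO by 0.89 ± 0.14 (adjusted p = 0.016) and lower in D2A7 than in D1E6 by -0.99 ± 0.13 (adjusted p = 0.0048).

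*Stk31*, a Tudor domain kinase gene on chromosome 6, was at 2.72 and 2.33 FPKM in WT, 4.3 and 4.02 in D2A7, 2.56 and 2.37 in D1E6, 4.35 and 4.81 in E2E8, and 3 and 2.86 in E2G7. D2A7 and E2E8 were above the other 6 libraries. The differences were 0.73 ± 0.07 between the *Dnttip1* KO clones (adjusted p = 0.0024), against the direction of the chromosome 6 medians, and 0.63 ± 0.07 between the *Elmsan1* KO clones (adjusted p = 0.0027), a call lost with chromosomes 6 and 8 centred, under quantile normalization and without E2E8 replicate 2. *Mov10l1*, the helicase that processes piRNA precursors, was at 0.558 and 0.6 FPKM in WT, 0.35 and 0.278 in D2A7, 0.454 and 0.424 in D1E6, 1.01 and 1.12 in E2E8, and 0.475 and 0.44 in E2G7. E2E8 was above WT and the other clones below, and E2E8 exceeded E2G7 by 1.07 ± 0.11 (adjusted p = 0.0022). *Asz1*, a mitochondrial scaffold of the pathway, also on chromosome 6, was likewise above WT in E2E8 and below it in the other clones. It stood at 0.507 and 0.406 FPKM in WT, 0.21 and 0.153 in D2A7, 0.204 and 0.325 in D1E6, 0.687 and 0.689 in E2E8, and 0.259 and 0.241 in E2G7. Here E2E8 exceeded E2G7 by 1.17 ± 0.12 (adjusted p = 0.0021).

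The remaining called genes of the pathway were low. *Mael*, a piRNA and transposon silencing gene, was at 0.431 and 0.338 FPKM in WT, 0.895 and 0.716 in D2A7, 0.36 and 0.338 in D1E6, 0.255 and 0.239 in E2E8, and 0.434 and 0.344 in E2G7. *Piwil1* was at 0.152 and 0.166 FPKM in WT, 0.322 and 0.409 in D2A7, 0.167 and 0.14 in D1E6, 0.17 and 0.146 in E2E8, and 0.186 and 0.147 in E2G7. Both were highest in the 2 D2A7 libraries. D2A7 exceeded D1E6 by 1.00 ± 0.15 for *Mael* (adjusted p = 0.0081), a call lost without D2A7 replicate 1, and by 0.87 ± 0.19 for *Piwil1* (adjusted p = 0.022), a call lost without any of the 4 libraries. *Tdrd9*, a helicase of the pathway, was at 0.097 and 0.0815 FPKM in WT, 0.127 and 0.0937 in D2A7, 0.0601 and 0.0592 in D1E6, 0.164 and 0.163 in E2E8, and 0.0594 and 0.024 in E2G7, on 10 to 60 fragments. Its difference of 0.90 ± 0.21 between E2E8 and E2G7 (adjusted p = 0.022) was lost without either E2G7 library. *Tdrd9* passed the filter there only through its E2E8 level, so it could hardly have been called lower. *Ddx4*, the germ cell helicase also known as VASA, was at 2.34 and 2.61 FPKM in WT, 1.87 and 1.75 in D2A7, 2.53 and 2.27 in D1E6, 2.8 and 2.84 in E2E8, and 2.77 and 2.65 in E2G7, and no comparison called it. *Tdrd1* (0.0551 to 0.205 FPKM), *Tdrd7* (0.247 to 0.685 FPKM) and *Tdrkh* (0.0555 to 0.166 FPKM) were not called in the 5 comparisons, and *Tdrd1* was called only in E2E8 against WT (0.72 ± 0.20, adjusted p = 0.018). Without the E2E8 libraries *Tdrd1* would not have passed the filter there, so it could hardly have been called lower.

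Of the spermatogenic effectors, only *Slc25a31*, the testis ADP/ATP carrier, was called. It stood at 0.656 and 0.627 FPKM in WT, 0.317 and 0.335 in D2A7, 0.317 and 0.282 in D1E6, 0.654 and 0.336 in E2E8, and 0.367 and 0.313 in E2G7. All KO libraries but E2E8 replicate 1 were lower than WT. The log2 fold change in *Dnttip1* KO was -0.85 ± 0.15 (adjusted p = 0.025), a call lost without WT replicate 1. *Taf7l* (0.0643 to 0.282 FPKM), a paralog of a general transcription factor subunit, and *Tex101* (0.0391 to 0.183 FPKM), a sperm surface glycoprotein gene, were not called, and *Brdt* had at most 18 fragments in a library.

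The X-linked *Rhox* genes did not change together. *Rhox2a* (chrX:34784971-34789683) was at 1.54 and 1.39 FPKM in WT, 0.095 and 0.244 in D2A7, 0.171 and 0.131 in D1E6, 0.574 and 0.314 in E2E8, and 0.117 and 0.137 in E2G7, on 5 to 45 fragments. All 8 KO libraries were below WT, with E2E8 the least so. The log2 fold change was -2.62 ± 0.26 in *Dnttip1* KO (adjusted p = 0.0058) and -2.17 ± 0.48 in *Elmsan1* KO (adjusted p = 0.038), of which the latter was lost without either WT library. E2E8 exceeded E2G7 by 1.22 ± 0.27 (adjusted p = 0.018), a call lost without E2E8 replicate 1 or either E2G7 library. *Rhox2a* has near-identical copies among which reads may be split. The 8 *Rhox2* rows summed to 2 and 2.37 FPKM in WT, 0.116 and 0.452 in D2A7, 0.337 and 0.191 in D1E6, 0.832 and 0.602 in E2E8, and 0.192 and 0.255 in E2G7, the same order as for *Rhox2a*. *Rhox13* (chrX:35474396-35483143) was at 0.609 and 0.388 FPKM in WT, 0.11 and 0.0643 in D2A7, 0.0707 and 0.0543 in D1E6, 0.06 and 0.0169 in E2E8, and 0.0142 and 0.0925 in E2G7, on 16 and 13 fragments in WT and 1 to 7 in a KO library. It was lower in both knockouts, by -1.76 ± 0.24 (adjusted p = 0.013) and -2.05 ± 0.31 (adjusted p = 0.013). *Rhox13* passed the filter only through its WT level, so it could hardly have been called higher. With the correlation within clones estimated, the calls of *Rhox13* in both knockouts, of *Hormad2* and *Slc25a31* in *Dnttip1* KO and of *Dazl* and *Rhox2a* in *Elmsan1* KO were lost.

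*Rhox6* and *Rhox9*, from the same cluster, were not called in either knockout. *Rhox6* stood at 20.1 and 17.1 FPKM in WT, 10.8 and 11.5 in D2A7, 24.6 and 23.5 in D1E6, 18.4 and 18.5 in E2E8, and 26.3 and 24.1 in E2G7. *Rhox9* stood at 5.39 and 5.57 FPKM in WT, 3.96 and 3.87 in D2A7, 7.81 and 7.05 in D1E6, 5.26 and 5.64 in E2E8, and 8.23 and 7.94 in E2G7. For both genes D1E6 and E2G7 were above WT, E2E8 was at its level and D2A7 below it. D2A7 lay below D1E6 by -1.10 ± 0.05 for *Rhox6* (adjusted p = 0.00049) and by -0.91 ± 0.07 for *Rhox9* (adjusted p = 0.0011). Both genes were also lower in E2E8 than in E2G7, by -0.45 ± 0.05 and -0.56 ± 0.05, short of the fold.

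**Figure D5:**
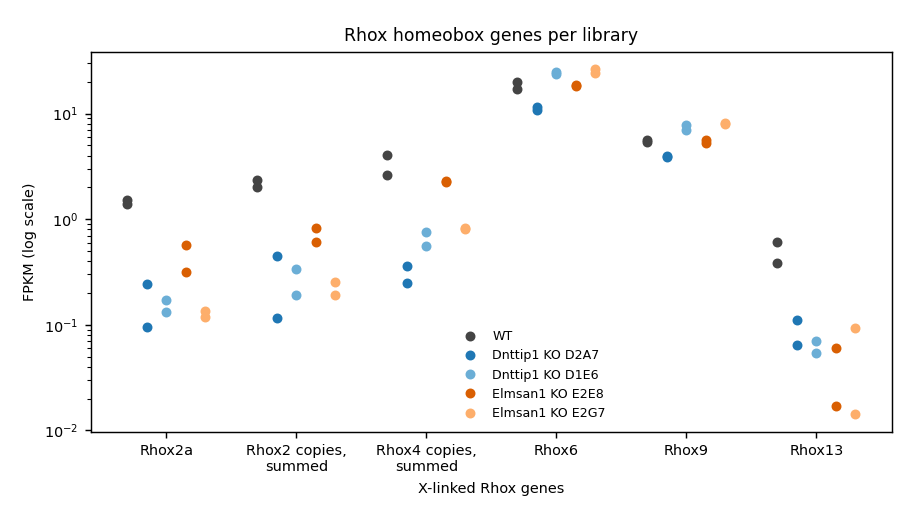
FPKM on a log scale in each of the 10 libraries for the *Rhox* genes of the set and for the summed copies of *Rhox2* and *Rhox4*, with colour for WT and the 4 KO clones. The KO libraries lie below WT for *Rhox2a* and *Rhox13* and on both sides of WT for *Rhox6* and *Rhox9*.

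Further genes of these pathways, on lists chosen beside the set with earlier results known, were counted in the same comparisons. Of 25 other *Rhox* genes, 8 were tested in *Dnttip1* KO against WT and 7 were lower (3.25% of all genes), among them *Rhox4e* (-2.38 ± 0.39, adjusted p = 0.02) and *Rhox1* (-2.08 ± 0.30, adjusted p = 0.016), and limma called 0 of 9 in *Elmsan1* KO, where the median was -0.69 and 3 had an unadjusted p under 0.05. Only 3 of the 25 passed the filter in D2A7 against D1E6. The rest of the 8 thus passed it against WT through their WT level and could hardly be called higher. Rows that are copies of each other, as for *Rhox4*, are not independent genes. The count of 7 is therefore not read as an excess over the share of all genes. Set against WT alone, E2G7 had 7 of 8 lower, beside 6.86% of all genes. E2E8 had 0 of 9 lower, beside 6.24% of all genes, and 3 at an unadjusted p under 0.05. Between these clones 2 of 6 were called higher in E2E8, beside 10.5% of all genes, and 5 were higher at an adjusted p under 0.05. The limits of copies and of the filter apply to these counts too, and they are not read as an excess. How many of these rows passed the filter through a single group was not worked out. The 7 *Rhox4* copies summed to 4.02 and 2.6 FPKM in WT, 0.248 and 0.361 in D2A7, 0.557 and 0.756 in D1E6, 2.24 and 2.31 in E2E8, and 0.834 and 0.808 in E2G7, so that E2E8 again lay nearest to WT. Of 16 other piRNA pathway genes, 15 were tested in each comparison; limma called 1 lower in *Dnttip1* KO (3.25% of all genes) and 0 in *Elmsan1* KO, where 4 had an unadjusted p under 0.05. That gene was *Tex19.1*, which acts in transposon control, with a log2 fold change of -1.36 ± 0.05 (adjusted p = 0.00098). It stood at 44.9 and 45.8 FPKM in WT and 44.9 and 41.8 in E2E8, and between 16.8 and 20.6 FPKM in the libraries of the other 3 clones, like *Sohlh2*. In E2E8 against E2G7, 6 of the 15 (40%) were higher and 0 lower, beside 10.5% and 3.27% of all genes, led by *Gpat2* (1.23 ± 0.04, adjusted p = 0.0005), *Fkbp6* (1.09 ± 0.06, adjusted p = 0.00075), *Tex19.1* (1.09 ± 0.04, adjusted p = 0.00055) and *Rnf17* (0.88 ± 0.05, adjusted p = 0.0007).

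Of 29 other meiosis genes in the table, 1 of 26 tested (3.85%, beside 3.25% of all genes) was lower in *Dnttip1* KO, and 2 of 25 were lower and 1 higher in *Elmsan1* KO, beside 3.68% and 2.74% of all genes. The latter were *Gm1564* (-1.69 ± 0.16, adjusted p = 0.0042), *Mns1* (-0.68 ± 0.18, adjusted p = 0.067) and *Tex15* (0.69 ± 0.10, adjusted p = 0.011). Between E2E8 and E2G7, 5 of 25 (20%) were higher and 0 lower, beside 10.5% and 3.27% of all genes. Of 20 other germ cell regulators, 3 of 17 tested were higher in *Dnttip1* KO and 0 lower (3.26% and 3.25% of all genes), and 1 of 16 was higher and 1 lower in *Elmsan1* KO (2.74% and 3.68%). *Pdpn*, a surface glycoprotein also carried by germ cells, was higher in both, by 1.13 ± 0.08 (adjusted p = 0.0032) and 0.94 ± 0.12 (adjusted p = 0.0084).

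A list of 26 genes for the control of germline genes held DNA methyltransferases, TET enzymes and PRC1.6 subunits among others, and not all of these are repressors. All 26 were tested. In *Dnttip1* KO 1 was higher and 1 lower (3.26% and 3.25% of all genes). In *Elmsan1* KO limma called 0, and 7 had an unadjusted p under 0.05. Between E2E8 and E2G7, 4 were lower and 1 higher, beside 3.27% and 10.5% of all genes. At an adjusted p under 0.05 without the fold, 20 of the 26 were lower and 1 higher, for which no share of all genes was worked out. *Dnmt3l*, the cofactor of the de novo methyltransferases, was at 5.95 and 6.38 FPKM in WT, 15.5 and 15.5 in D2A7, 29.3 and 28.3 in D1E6, 2.89 and 3.11 in E2E8, and 16.1 and 15.4 in E2G7. *Dnmt3b*, a de novo methyltransferase, was at 11.1 and 10.2 FPKM in WT, 15.4 and 15.2 in D2A7, 10.7 and 10.9 in D1E6, 3.65 and 3.82 in E2E8, and 13.5 and 13.6 in E2G7. E2E8 was thus the lowest group for both genes, and the differences to E2G7 were -2.36 ± 0.05 for *Dnmt3l* (adjusted p = 0.00048) and -1.83 ± 0.04 for *Dnmt3b* (adjusted p = 0.00048). *Tet2*, a TET dioxygenase gene, was lower in E2E8 too (-0.99 ± 0.04, adjusted p = 0.0005). *Dnmt3l*, *Dnmt3b* and *Tet2* were thus lower in E2E8 than in E2G7, where 12 germline and meiosis genes were higher. Their part in that result was not tested, and no direction of effect is read from them.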

How the data were processed

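Stranded total RNA of 10 mESC libraries was sequenced from both ends. The authors mapped reads to NCBIM37, took gene counts from HT-seq and GENCODE (vM20 by their methods), and deposited FPKM, a fragment count divided by gene length and library total. Their call rule, a fold and an unadjusted p, was also used here. For their own tests the submitters' notes name edgeR 3.16.5, limma and R 3.3.1. Of the gene identifiers in the deposited table, 97.2% matched GENCODE vM1, which gave positions and exon lengths here. FPKM times exon length were whole multiples of 1 fragment, within 0.02, for 98.1% to 98.4% of values under 100 fragments, which gave the depth per library. All columns were used.

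FPKM were scaled by the median ratio over 11270 genes that reached 1 FPKM in every library (factors 0.965 to 1.01), and log2(FPKM + 0.1) was tested with limma 3.58.1 in R 4.3.3, with a variance trend and Benjamini-Hochberg adjustment over all genes. The fit was tested on simulated data. Samples were grouped by the genotype and clone in their labels. Replicates differed beyond counting noise. Same-numbered libraries did not deviate together (correlations -0.14 to 0.19), so no block was used. Genes named with every library's value are those called in any of the 5 comparisons or with a mean of at least 1 FPKM in WT or a clone; of other lists, at most 4 called genes with the largest change and at least 1 FPKM were named, and *Chpt1*, which overlaps *Sycp3*, was added after seeing the data. The members and lists were chosen with earlier results of these data known. Promoter matches and figures were made with Python 3.11.15 and matplotlib 3.10.9. Intervals of fitted values are at the 95% level, and the fragments behind a value limit its precision for low genes.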

Additional observations from a re-analysis of the deposited data

Results flagged for a closer look

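In the *Elmsan1* KO group, *Slc25a31* stood at 0.654 FPKM in E2E8 replicate 1, far from the other 3 libraries of the group. Of 54 groups of 4 libraries examined in this way, 1 held such a library. Chance flags about 1 group in 20 where the 4 libraries are independent. These groups hold pairs of libraries from the same clone, so that rate need not apply here.

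Several genes differed between the clones of a knockout by a test of the difference itself. In D2A7 against D1E6 the log2 differences were 1.60 for *Dazl*, 1.10 for *Smc1b*, 1.00 for *Mael*, 0.94 for *Dmc1*, 0.87 for *Piwil1* and 0.73 each for *Rec8*, *Stk31* and *Sycp3*. In the same comparison they were -1.10 for *Rhox6*, -0.99 for *Tdrd5*, -0.91 for *Rhox9*, -0.72 for *Piwil2* and -0.61 for *Hormad1*. In E2E8 against E2G7 the differences were 1.22 for *Rhox2a*, 1.17 for *Asz1*, 1.14 for *Hormad2*, 1.07 for *Mov10l1*, 1.01 for *Rec8*, 1.00 for *Sycp3*, 0.97 for *Smc1b*, 0.92 for *Sohlh2*, 0.90 for *Tdrd9*, 0.82 for *Hormad1*, 0.66 for *Stag3* and 0.63 for *Stk31*.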

How the results depend on the processing

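The 37 calls of single genes gave 634 values under the alternatives, of which 577 kept the call, 57 lost it and 0 reversed. A pseudocount of 1 lowered the number of genes called to 3 in each knockout against WT, to 5 in D2A7 against D1E6 and to 6 in E2E8 against E2G7. Restricting the test to a mean of at least 1 FPKM gave 3 in *Dnttip1* KO and 7 in E2E8 against E2G7, where fewer genes were tested. The correlation within clones gave 3 in each knockout against WT; the cause was not tested. Setting 1 clone against WT, chosen after seeing the data, gave 16 for D2A7, 11 for D1E6, 11 for E2E8 and 10 for E2G7. Between the knockouts, the fit of all 10 libraries gave 8 and voom 1. Leaving out 1 library at a time gave 5 to 7 in *Dnttip1* KO, 2 to 7 in *Elmsan1* KO, 0 to 1 between the knockouts, 11 to 12 between the *Dnttip1* KO clones and 10 to 11 between the *Elmsan1* KO clones. A lone remaining library is assumed to vary like the others. With a replicate block the counts were 6, 6, 0, 12 and 10 in the same order; the libraries share a number only, and no result depends on the block for its direction. Low depth in WT limits what can be shown for genes such as *Rhox13*, with 16 and 13 fragments there.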
